A study of Mus musculus with 6 samples.

Results

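The sarcomere and contractile genes of skeletal muscle were examined in C2C12 cells, an immortalised mouse myoblast line, before and after induction of a chimeric transcription factor. The set comprised 39 genes chosen by symbol for their role in the contractile apparatus, and all 39 were found among the 24028 genes of the count table. All 6 libraries came from a single clonal C2C12 line, MMH6, in which doxycycline switches on a codon-altered transgene called MMH. The MMH protein carries the amino-terminal part of mouse Dux with its homeodomains, followed by the part of human DUX4 that lies after the DUX4 homeodomains. The uninduced group consisted of 3 cultures without doxycycline and the induced group of 3 cultures with 2 µg/ml doxycycline, all of them kept in puromycin to retain the transgene and in growth medium with fetal bovine serum. The labels disagree on the length of treatment, which is 18 h in the design text and 36 h in the treatment protocol, so the time is not settled. Uninduced cells carried the same transgene and were harvested in parallel. Replicates were separate cultures of this 1 clone, and p-values measure the spread between them. Cells with doxycycline and no transgene were not analysed here, so drug and transgene cannot be told apart in any difference.

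A sarcomere is the repeating contractile unit of striated muscle, in which thick filaments of myosin pull on thin filaments of actin. Thin filaments are anchored at the Z-disc and carry troponin and tropomyosin, which make contraction depend on calcium, whereas thick filaments are joined at the M-band and held in register by titin. Most of these proteins exist as fast-fibre, slow-fibre, cardiac and developmental isoforms encoded by separate genes. Proliferating myoblasts express them at low levels, and the genes are switched on by myogenic factors such as MyoD and myogenin as cells fuse into myotubes.

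The libraries held 21.5 to 24.5 M counts each. Values are given as CPM, a count scaled to the size of its library, with sizes adjusted by the trimmed mean of M values (TMM). Each direction is therefore relative to the bulk of the tested genes. Differences are log2 fold changes of induced over uninduced cells. Directions depend on the scaling. A set of 6 families of repeated cleavage-stage genes took 0.152% ± 0.00380 of counts before and 20.1% ± 0.267 after induction (SD, n = 3 each). On library size alone, the median log2 fold change of all tested genes moved from -0.01 to -0.97. The myoblast label was checked against 5 markers, of which Msc had almost no counts and Myod1, Cdh15, Myf5 and Chrna1 were all detected in every library. In induced cells, 3 of the 4 tested myoblast markers were lower and 0 higher, against 41.2% lower of all genes tested. Myod1, Cdh15 and Myf5 were at -2.26, -2.28 and -1.23 on the log2 scale. The summed level of the list was 749 to 768 CPM before and 423 to 435 CPM after induction. Most of the induced sum was Chrna1, which was not called, at 347 CPM on average before and 340 CPM after induction. All 3 tested markers of differentiating myocytes, Myog, Mymk and Mef2c, were lower. The remaining listed marker, Cdkn1c, was too low to be tested and went the other way, with counts of 3, 0 and 2 before and 13, 14 and 4 after induction. Cdkn1c was called higher by DESeq2 and without the low-count filter. The summed level for the 4 listed markers was 241 to 253 CPM against 108 to 121 CPM. Among markers of other cell types, the summed level of 8 cardiomyocyte markers was 31.1 to 31.6 CPM before and 38.6 to 42.9 CPM after induction, with Myl7, Hcn4 and Nppa at or near 0. Of the 5 cardiomyocyte markers tested, Nkx2-5 (2.48) and Gata4 (0.40) were higher, Myh6 (-0.72) and Nppb (-1.85) were lower and Tnni3 (-0.55) was not called, as log2 fold changes. The 5 adipocyte markers summed to 0.389 to 0.582 CPM and 7.30 to 8.15 CPM, with Adipoq, Plin1, Cfd and Lep at 0 in all uninduced libraries. Nearly all of that sum was Fabp4, at 0.466 ± 0.103 CPM before and 7.06 ± 0.791 CPM after induction (SD, n = 3 each). The 5 smooth muscle markers summed to 2500 to 2776 CPM and 1472 to 1553 CPM, nearly all of it Acta2. Of these 5, Acta2, Cnn1 and Lmod1 were lower, whereas Smtn and Myh11 were higher, by 1.00 and 2.76 on the log2 scale. The 5 osteoblast markers summed to 51.3 to 54.1 CPM and 35.3 to 37.3 CPM, nearly all of it Runx2, at 49.3 and 35.5 CPM on average. Runx2 (-0.47) and Sp7 (-2.13) were lower, as log2 fold changes, and Bglap, Ibsp and Alpl were near 0 and not tested. The part of these lists in the results below was not tested.

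Contractile transcripts were on balance lower in induced cells, by a moderate amount. Of the 39 genes, 36 had enough counts to be tested, and by edgeR's quasi-likelihood test 25 were lower, 4 were higher and 7 were not called at an adjusted p of 0.05. Over all 12969 genes tested, 82.5% were called in either direction, 41.2% lower and 41.3% higher. The median log2 fold change of the 36 genes was -0.31, against -0.01 for all genes tested. Called changes of at least 2-fold were found for 5 of the 36 genes, with Ldb3, Klhl40, Actn3 and Tcap lower and Myh8 higher, against 30.7% of all genes tested. CPM values of the groups did not overlap for 23 genes that were lower and 4 that were higher in induced cells, against 41.7% and 41.5% of all genes. On library size alone, 35 of the 36 genes were lower and 0 higher, while 76.7% of all genes were lower and 15.2% higher. The 1 gene not called on library size alone was Myh8, at 0.07 (edgeR adjusted p = 0.444). With upper-quartile scaling 29 of the 36 genes were lower and 2, Myh8 and Klhl41, were higher. This scaling also moved the median log2 fold change of all genes tested, from -0.01 to -0.16. The median of the 36 genes minus that of all genes was -0.30 with TMM and with upper-quartile scaling. The larger number of lower calls therefore came with a shift of all genes.

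As a share of all counts, the 39 genes together took 0.393%, 0.392% and 0.399% before and 0.143%, 0.155% and 0.156% after induction. These shares do not overlap, and the ratio of their means was 0.384. Outside the cleavage-stage families the share was 0.395% ± 0.00355 and 0.190% ± 0.00956 (SD, n = 3 each), a ratio of 0.480. On the TMM scale the summed level was 2828 ± 32.7 CPM and 2119 ± 106 CPM (SD, n = 3 each), a ratio of 0.749, so most of the gap between the share of all counts and the TMM scale remained with the families left out. Desmin alone made up 36.9% ± 0.248 of the uninduced sum and 32.5% ± 1.13 of the induced sum (SD, n = 3 each), and without it the ratio was 0.801. In these bulk samples, fewer cells expressing contractile genes and less RNA per cell cannot be told apart.

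**Figure D1:**
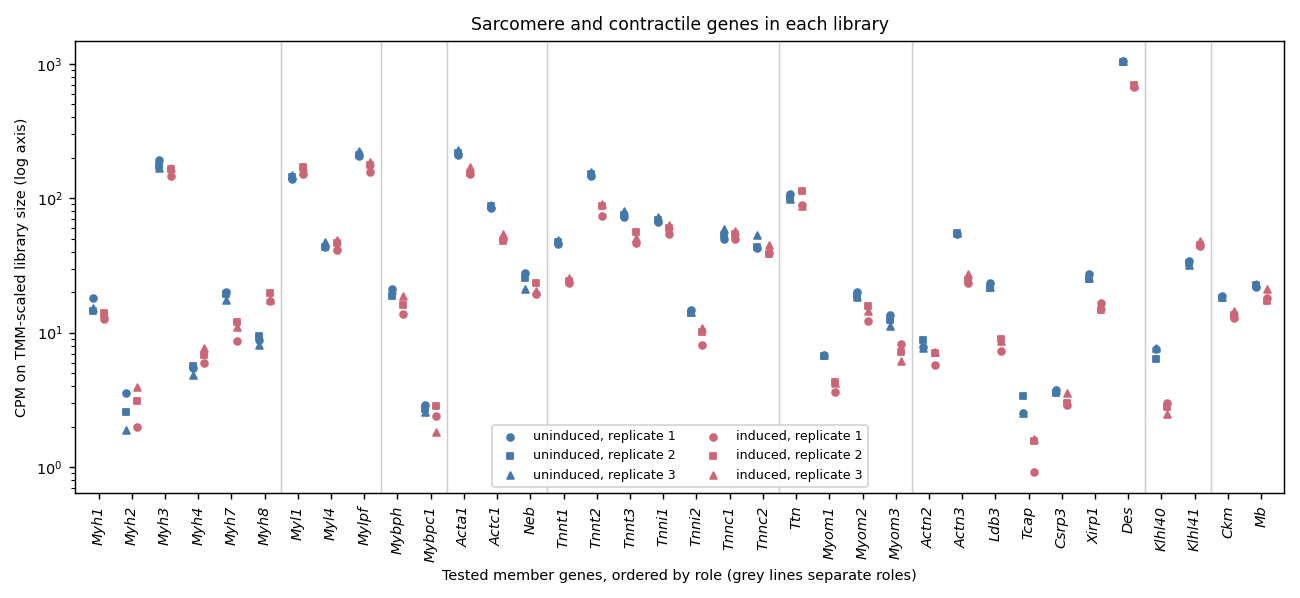
Level of each of the 36 tested genes in each of the 6 libraries, in CPM on a log axis, with uninduced libraries in blue and induced libraries in red and the marker shape giving the replicate number. Des lies highest, at 676 to 1048 CPM, and Ldb3, Klhl40 and Actn3 show the widest downward gaps while Myh8 shows an upward one.

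Levels differed widely between the genes. Per kilobase of annotated exon, which allows genes to be compared, Des had 278 ± 2.26 CPM per kb in uninduced cells, followed by Mylpf at 202 ± 8.02, Acta1 at 142 ± 6.45 and Myl1 at 69.3 ± 2.14 CPM per kb (SD, n = 3 each). Tnnc2, Actc1, Tnnc1 and Tnnt3 came next, at 58.2 ± 7.55, 54.0 ± 1.41, 51.9 ± 4.29 and 48.1 ± 2.38 CPM per kb, and none of these 4 stood apart from its next neighbour by more than their spread. Titin and nebulin transcripts were near 1 CPM per kb, at 0.878 ± 0.0392 and 0.935 ± 0.126. Exon lengths were the union over all annotated transcripts, so the level of a gene with many alternative exons is understated. No count was found in any library for Myl2 and Myl3, the slow and ventricular light chains. A count of 0 allows up to 3 counts, or 0.0897 to 0.0983 CPM in an uninduced and 0.171 to 0.194 CPM in an induced library, covering counting error only. Mybpc2, the fast myosin-binding protein C, had counts of 2, 0 and 0 before and 2, 1 and 0 after induction and was not tested.

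Among the myosin heavy chains, the motors of the thick filament, members moved in both directions. Of 6 genes, 3 were called lower (Myh1, Myh3, Myh7) and 2 higher (Myh4, Myh8), and Myh2 was not called. All genes tested were split as well, with 41.2% called lower and 41.3% higher. Myh8, the perinatal heavy chain, had 8.80, 9.51 and 8.16 CPM before and 17.1, 19.7 and 17.6 CPM after induction. Every induced library was above every uninduced one, and the log2 fold change was 1.04 ± 0.09 (SE, edgeR adjusted p = 1.70e-10). In raw counts Myh8 had 294, 294 and 249 reads before and 300, 305 and 307 reads after induction, so this rise is one relative to other transcripts. Myh7, the slow and beta-cardiac heavy chain, moved the other way, from 20.0, 19.4 and 17.4 CPM to 8.66, 12.1 and 11.0 CPM, a log2 difference of -0.85 ± 0.10 (SE, edgeR adjusted p = 4.44e-08). Its exons overlap antisense transcripts, Mhrt among them, over 13.3% of their length, and the part of these in its counts was not tested. Myh3, the embryonic heavy chain and the most abundant of the 6, went from 194, 174 and 167 CPM to 146, 166 and 167 CPM. The highest induced value lay just under the lowest uninduced one, and the log2 fold change was -0.16 ± 0.06 (SE, edgeR adjusted p = 0.0157).

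The smaller heavy chain calls rested on single libraries, and without uninduced replicate 1 or induced replicate 1 the count of heavy chains called lower was 1 in place of 3. Myh3 was not called without uninduced replicate 1 (edgeR adjusted p = 0.0568) or without induced replicate 1 (edgeR adjusted p = 0.114). Myh1, an adult fast heavy chain, was at -0.25 ± 0.09 on the log2 scale (SE, edgeR adjusted p = 0.0174), and at -0.14 without uninduced replicate 1 (edgeR adjusted p = 0.145), at -0.20 without induced replicate 1 (edgeR adjusted p = 0.0864) and not called by DESeq2 (adjusted p = 0.0587). Myh4, the fastest adult heavy chain, was at 0.36 ± 0.12 (SE, edgeR adjusted p = 0.0116) and at -0.61 on library size alone. It was not called by DESeq2 (adjusted p = 0.0716), with upper-quartile scaling (edgeR adjusted p = 0.122), without uninduced replicate 3 (edgeR adjusted p = 0.0524) or without induced replicate 3 (edgeR adjusted p = 0.0912). Myh2, the remaining adult fast chain, had 3.53, 2.56 and 1.90 CPM and 1.99, 3.11 and 3.96 CPM, with groups that overlapped. Myh1, Myh2, Myh3, Myh4 and Myh8 lie in 1 cluster on chromosome 11 and are closely related in sequence, and how reads matching several of them were counted is not given in the sources used here, so single values within the cluster are uncertain.

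The make-up of the heavy chain pool could be read within each library, where scaling plays no part. Per kilobase, Myh3 made up 81.4% ± 0.272 of the 6 heavy chains in uninduced and 80.4% ± 0.440 in induced libraries (SD, n = 3 each). Myh8 went from 2.08% ± 0.191 to 4.71% ± 0.301, Myh4 from 2.44% ± 0.188 to 3.44% ± 0.221 and Myh7 from 6.08% ± 0.248 to 3.73% ± 0.375 (SD, n = 3 each). For these 3 genes no induced library overlapped an uninduced one. The shares depend on the exon lengths used, 11772 bases for Myh8 against 6057 for Myh3 and 6016 for Myh4. In CPM, uninduced Myh8 lay above Myh4, at 8.82 against 5.31 on average, so the order of these genes per kilobase is uncertain. The embryonic chain was the main one in all 6 libraries.

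Myosin light chains, which stiffen the lever arm of the heavy chain, also split. Mylpf, the fast regulatory light chain, fell from 207, 211 and 224 CPM to 156, 176 and 185 CPM, with a log2 difference of -0.31 ± 0.05 (SE, edgeR adjusted p = 1.42e-05). Myl1, the fast essential light chain, had 139, 144 and 148 CPM and then 151, 171 and 170 CPM. All induced libraries were higher, and Myl1 rose by 0.19 ± 0.05 on the log2 scale (SE, edgeR adjusted p = 0.000878), but it was at 0.04 with upper-quartile scaling (edgeR adjusted p = 0.41) and at -0.78 on library size alone. Myl4, the embryonic and atrial essential light chain, was at 0.03 ± 0.06 (SE, edgeR adjusted p = 0.672) with groups that overlapped. Within libraries, the Mylpf share of the 3 light chains per kilobase went from 71.8% ± 0.260 to 64.6% ± 0.605 and the Myl1 share from 24.7% ± 0.299 to 31.5% ± 0.626 (SD, n = 3 each). Of the myosin-binding proteins, Mybph was lower, at -0.32 ± 0.09 (SE, edgeR adjusted p = 0.00283), with groups that overlapped at 21.2, 18.9 and 20.9 CPM against 13.8, 16.1 and 18.9 CPM. Without induced replicate 1 Mybph was at -0.21, and over all libraries left out in turn it ranged from -0.44 to -0.21. The other tested gene, Mybpc1, the slow isoform, was not called at -0.21 ± 0.19 (SE, edgeR adjusted p = 0.287). Mybph exons overlap the adenosine receptor gene Adora1 on the other strand over 49.9% of their length. Adora1 itself was at -1.75 ± 0.24 from 2.69 ± 0.308 CPM (SD, n = 3), so reads of the pair may not be separable.

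Both sarcomeric actins, which polymerise into the thin filament, were lower in induced cells. Within libraries, Acta1 made up 72.4% ± 0.422 of the 2 actins per kilobase before and 76.8% ± 0.463 after induction (SD, n = 3 each). Acta1, the adult skeletal form, had 209, 217 and 228 CPM before and 153, 155 and 171 CPM after induction, and Actc1, the cardiac and embryonic form, had 84.9, 87.9 and 89.4 CPM and then 49.6, 48.0 and 54.5 CPM. The groups were well apart for each. Acta1 fell by 0.45 ± 0.05 (SE, edgeR adjusted p = 4.85e-09) and Actc1 by 0.79 ± 0.05 (SE, edgeR adjusted p = 1.09e-12) on the log2 scale. Neb, which encodes the thin-filament ruler nebulin, was at -0.24 ± 0.09 (SE, edgeR adjusted p = 0.0274) with overlapping groups of 27.9, 25.4 and 21.3 CPM against 19.5, 23.4 and 20.5 CPM. That call was lost without uninduced replicate 1 (-0.15, edgeR adjusted p = 0.109), uninduced replicate 2 (edgeR adjusted p = 0.0661), induced replicate 1 (edgeR adjusted p = 0.14) or induced replicate 3 (edgeR adjusted p = 0.0895).

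All 7 troponin genes had negative fold changes, and 5 of them were called lower. Of the 12969 genes tested, 6554 had negative fold changes and 41.2% were called lower. Troponin T ties the complex to tropomyosin, troponin I blocks the actin-myosin interaction and troponin C binds calcium. The 3 troponin T genes had the most negative values. Tnnt1, the slow isoform, had 45.8, 47.2 and 49.1 CPM and then 23.3, 24.3 and 25.4 CPM, a log2 difference of -0.96 ± 0.06 (SE, edgeR adjusted p = 3.08e-13). Tnnt2, the cardiac and embryonic isoform, went from 148, 152 and 158 CPM to 73.7, 87.9 and 91.3 CPM, or -0.86 ± 0.06 (SE, edgeR adjusted p = 3.82e-10). Tnnt3, the fast isoform, went from 73.2, 74.6 and 80.3 CPM to 46.2, 56.6 and 50.4 CPM, or -0.58 ± 0.06 (SE, edgeR adjusted p = 1.82e-08). For each of them every induced library lay below every uninduced one. Among troponin I genes, the fast Tnni2 had 14.6, 14.0 and 14.2 CPM against 8.04, 10.1 and 10.9 CPM, and the slow Tnni1 had 67.0, 69.0 and 72.8 CPM against 53.9, 60.5 and 63.1 CPM. Tnni2 was at -0.56 ± 0.10 (SE, edgeR adjusted p = 1.48e-05) and Tnni1 at -0.23 ± 0.06 (SE, edgeR adjusted p = 0.000548). With TMM scaling the troponin C genes were not called, with slow and cardiac Tnnc1 at -0.0039 ± 0.0637 (SE, edgeR adjusted p = 0.958) and fast Tnnc2 at -0.18 ± 0.09 (SE, edgeR adjusted p = 0.0690). Tnnc2 was called without any 1 of uninduced replicate 1, uninduced replicate 2 or induced replicate 3, with adjusted p-values of 0.0105, 0.0275 and 0.0153 by edgeR. It was also called lower with upper-quartile scaling (-0.33, edgeR adjusted p = 0.0032) and without the low-count filter (-0.25, edgeR adjusted p = 3.59e-05), and Tnnc1 was called lower with upper-quartile scaling (-0.15, edgeR adjusted p = 0.0394). Tnnc2 exons overlap Ube2c, a gene of the mitotic ubiquitin machinery on the other strand, over 74.0% of their length. Ube2c went from 105 ± 4.97 to 116 ± 4.18 CPM (SD, n = 3 each), and its part in the Tnnc2 counts was not tested.

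Titin, which spans the sarcomere from Z-disc to M-band, was at -0.09 ± 0.08 (SE, edgeR adjusted p = 0.311), with 108, 101 and 98.8 CPM before and 89.6, 112 and 87.1 CPM after induction. Induced replicate 2 stood above the other 2 induced libraries, and without it Ttn was at -0.21 (edgeR adjusted p = 0.000776). Ttn was also called lower with upper-quartile scaling (-0.24, edgeR adjusted p = 0.0208) and without the low-count filter (-0.17, edgeR adjusted p = 0.00128). The 3 myomesins, which cross-link thick filaments at the M-band, were all lower, against 41.2% of all genes tested. Myom3 was at -0.78 ± 0.11 (SE, edgeR adjusted p = 7.76e-07), Myom1 at -0.75 ± 0.13 (SE, edgeR adjusted p = 8.21e-06) and Myom2 at -0.43 ± 0.09 (SE, edgeR adjusted p = 6.06e-05). Myom3 had 13.5, 12.4 and 11.2 CPM against 8.26, 7.18 and 6.14 CPM, and Myom2 had 20.0, 18.8 and 18.4 CPM against 12.3, 15.7 and 14.4 CPM. Of these, Myom1 was the least abundant, with 6.79 ± 0.0627 CPM before and 4.06 ± 0.353 CPM in induced cells (SD, n = 3 each). Myom1 exons overlap the non-muscle light chain gene Myl12a on the other strand over 1.98% of their length. Myl12a was far more abundant and went from 666 ± 24.9 to 462 ± 14.5 CPM (SD, n = 3 each). Its part in the Myom1 counts was not tested.

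Of the 7 Z-disc, desmin and attachment genes 6 were called lower and 1 was not called, with a median of -0.73. For all genes tested, 41.2% were called lower and the median was -0.01. Ldb3, which encodes the PDZ and LIM protein that links alpha-actinin to signalling partners, had 23.3, 21.4 and 22.1 CPM before and 7.35, 8.93 and 8.72 CPM after induction. Its log2 difference of -1.42 ± 0.09 (SE, edgeR adjusted p = 2.92e-13) lay at the 6.16 percentile of all genes tested. Actn3, the fast-fibre alpha-actinin that cross-links thin filaments, went from 54.1, 55.1 and 55.1 CPM to 23.3, 24.5 and 27.2 CPM, or -1.13 ± 0.06 (SE, edgeR adjusted p = 1.66e-14). Its relative Actn2 was at -0.28 ± 0.12 (SE, edgeR adjusted p = 0.0267), a call lost with DESeq2 (adjusted p = 0.101), without uninduced replicate 2 (edgeR adjusted p = 0.113) and without induced replicate 1 (-0.18, edgeR adjusted p = 0.186). Per kilobase, Actn3 was 89.8% ± 0.589 of the pair before and 83.1% ± 1.13 after induction (SD, n = 3 each). Tcap, the titin cap protein, was low throughout, at 2.81 ± 0.479 and 1.36 ± 0.387 CPM (SD, n = 3 each), with a log2 difference of -1.05 ± 0.23 (SE, edgeR adjusted p = 0.000166). Xirp1, an actin-binding Xin repeat protein of cell attachment sites, had 27.4, 25.0 and 25.7 CPM against 16.5, 14.8 and 15.8 CPM and was at -0.73 ± 0.07 (SE, edgeR adjusted p = 2.17e-09). Csrp3, the muscle LIM protein, was not called at -0.23 ± 0.15 (SE, edgeR adjusted p = 0.165), but was called lower with upper-quartile scaling (-0.38, edgeR adjusted p = 0.0277). Des, the muscle intermediate filament gene and by far the most abundant of the set, had 1046, 1032 and 1048 CPM before and 676, 692 and 698 CPM after induction and fell by 0.60 ± 0.04 on the log2 scale (SE, edgeR adjusted p = 4.44e-13).

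The 2 muscle kelch proteins, both of which stabilise thin-filament proteins and are linked to nemaline myopathy, went in opposite directions. Klhl40 had 7.60, 6.41 and 7.74 CPM before and 3.02, 2.78 and 2.47 CPM after induction, a log2 difference of -1.39 ± 0.14 (SE, edgeR adjusted p = 3.58e-09). Klhl41 had 34.2, 32.9 and 32.0 CPM and then 43.9, 45.0 and 48.2 CPM, a log2 difference of 0.47 ± 0.06 (SE, edgeR adjusted p = 7.16e-08) that became -0.50 on library size alone. Neither gene's groups overlapped. The predicted gene Gm47108 on the other strand covers 21.6% of the Klhl40 exons, and its part was not tested. Ckm, the creatine kinase that regenerates ATP at the M-band, fell by 0.43 ± 0.08 (SE, edgeR adjusted p = 2.77e-05) and Mb, the oxygen store myoglobin, by 0.25 ± 0.08 (SE, edgeR adjusted p = 0.00456) on the log2 scale. Ckm went from 18.3 ± 0.376 to 13.7 ± 0.849 CPM (SD, n = 3 each), and Mb had 21.9, 22.6 and 23.1 CPM against 18.2, 17.1 and 21.3 CPM. Overlapping genes on the other strand cover 15.5% of Ckm and 31.9% of Mb exons, and the library kit named in the labels does not mark strand.

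**Figure D2:**
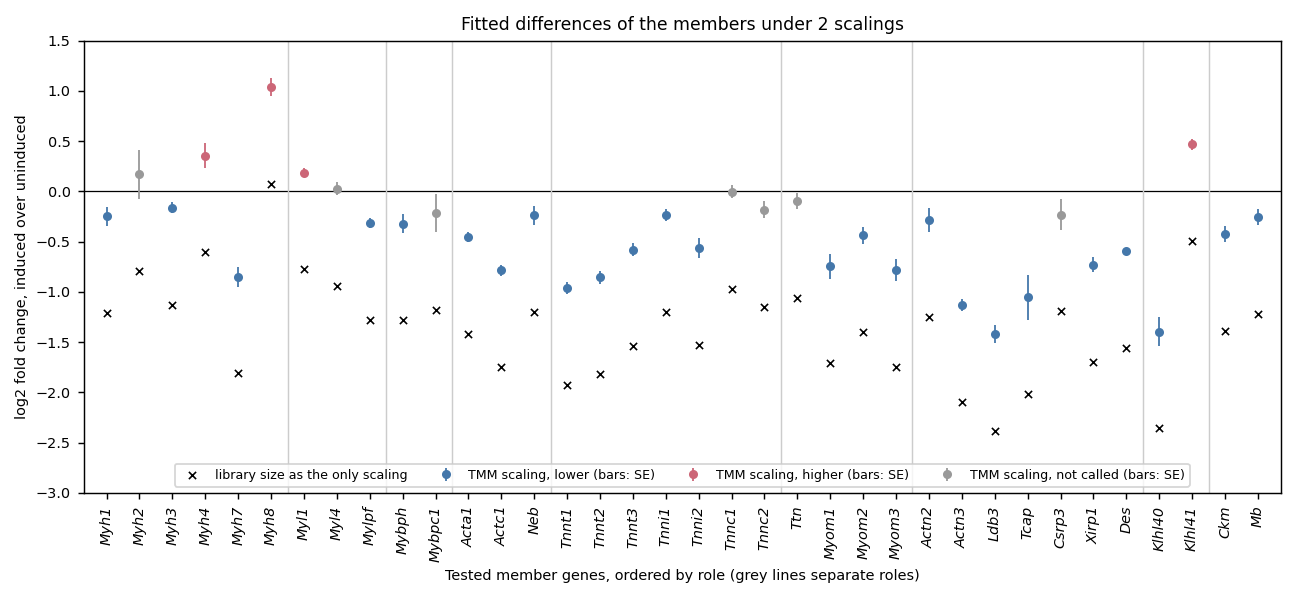
Log2 fold change of induced over uninduced cells for the 36 tested genes by edgeR with TMM scaling (points, bars are SE, blue called lower, red called higher, grey not called) and on library size alone (crosses). The crosses lie about 0.97 below the points, and with them only Myh8 remains on the upper side of 0, at 0.07.

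Promoter sequences are shown for the genes with the most negative fold change among members that have an entry (Ldb3 and Klhl40) and for the 2 with the most positive called change (Myh8 and Klhl41), because the kelch pair and the extremes moved in opposite directions. Each run is the 250 bases before the RefSeq transcription start in GRCm38.p6, 5′ to 3′ on the strand of the gene. Capitals mark matches to the E-box CANNTG, which myogenic factors bind, to the CArG box of serum response factor and to the MEF2 site.
Ldb3, chr14:34588682-34588931, minus strand: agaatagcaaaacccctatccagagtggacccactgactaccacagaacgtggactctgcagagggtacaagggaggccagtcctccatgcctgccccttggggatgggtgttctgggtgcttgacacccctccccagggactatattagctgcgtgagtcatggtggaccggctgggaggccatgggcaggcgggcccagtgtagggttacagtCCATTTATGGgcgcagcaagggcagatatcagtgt
Klhl40, chr9:121777357-121777606, plus strand: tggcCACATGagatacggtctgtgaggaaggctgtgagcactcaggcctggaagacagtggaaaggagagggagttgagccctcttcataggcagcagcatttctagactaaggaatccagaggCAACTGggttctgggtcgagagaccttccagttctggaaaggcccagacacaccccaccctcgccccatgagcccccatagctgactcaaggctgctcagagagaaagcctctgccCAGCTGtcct
Myh8, chr11:67276874-67277123, plus strand: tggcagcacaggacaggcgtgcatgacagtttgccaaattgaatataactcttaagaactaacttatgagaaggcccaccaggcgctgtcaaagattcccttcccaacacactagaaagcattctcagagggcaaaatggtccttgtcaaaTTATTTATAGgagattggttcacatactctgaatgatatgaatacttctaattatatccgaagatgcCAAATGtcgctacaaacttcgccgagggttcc
Klhl41, chr2:69669870-69670119, plus strand: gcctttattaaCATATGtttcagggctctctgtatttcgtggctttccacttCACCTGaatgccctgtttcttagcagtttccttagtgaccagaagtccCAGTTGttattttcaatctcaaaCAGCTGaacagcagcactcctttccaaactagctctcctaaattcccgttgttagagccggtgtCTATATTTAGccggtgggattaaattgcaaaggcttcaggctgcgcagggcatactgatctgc

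Ldb3 held no E-box and 1 CArG box, which began 35 bases before the start. Ldb3 has 2 starts in the table, and the first listed is shown. Klhl40 held 3 E-boxes, Klhl41 held 4 with a MEF2 match 63 bases before the start, and Myh8 held 1 with a MEF2 match 99 bases before the start that overlaps a match to TATAAA read on the other strand. Tcap, Tnni2, Actn3, Tnnt3, Myom2, Xirp1 and Neb had no entry. Of the 39 genes 32 had one, and 27 of these, or 84.4%, held an E-box within 250 bases, against 66.0% of all 27025 gene promoters. Counted on both strands, CArG boxes were found in 6 of 32 (Acta1, Actc1, Ldb3, Myh4, Myl3 and Myom1), or 18.8% against 1.40% of all promoters, and MEF2 sites in 6 of 32 (Klhl41, Myh1, Myh4, Myh8, Myom3 and Ttn), or 18.8% against 3.01%. TATAAA was in 8 of 32, against 13.0% of all promoters. Of the 6 with a CArG box, Acta1, Actc1, Ldb3 and Myom1 were called lower, Myh4 was called higher and Myl3 had no counts. Of the 6 with a MEF2 match, Klhl41, Myh4 and Myh8 were called higher, Myh1 and Myom3 lower and Ttn was not called. Matches to letters are descriptions and not shown to be binding sites.

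Isoforms were also grouped by fibre type. Of 9 tested fast-fibre isoforms 5 were lower and 2 higher, with a median log2 fold change of -0.25. Of 5 tested slow-fibre isoforms 3 were lower and 0 higher, with a median of -0.23. Of 5 embryonic and developmental isoforms 3 were lower and 1 higher, with a median of -0.16. Of all genes tested, 41.2% were lower and 41.3% higher, with a median of -0.01. Whether these isoform groups differ was not tested.

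**Figure D3:**
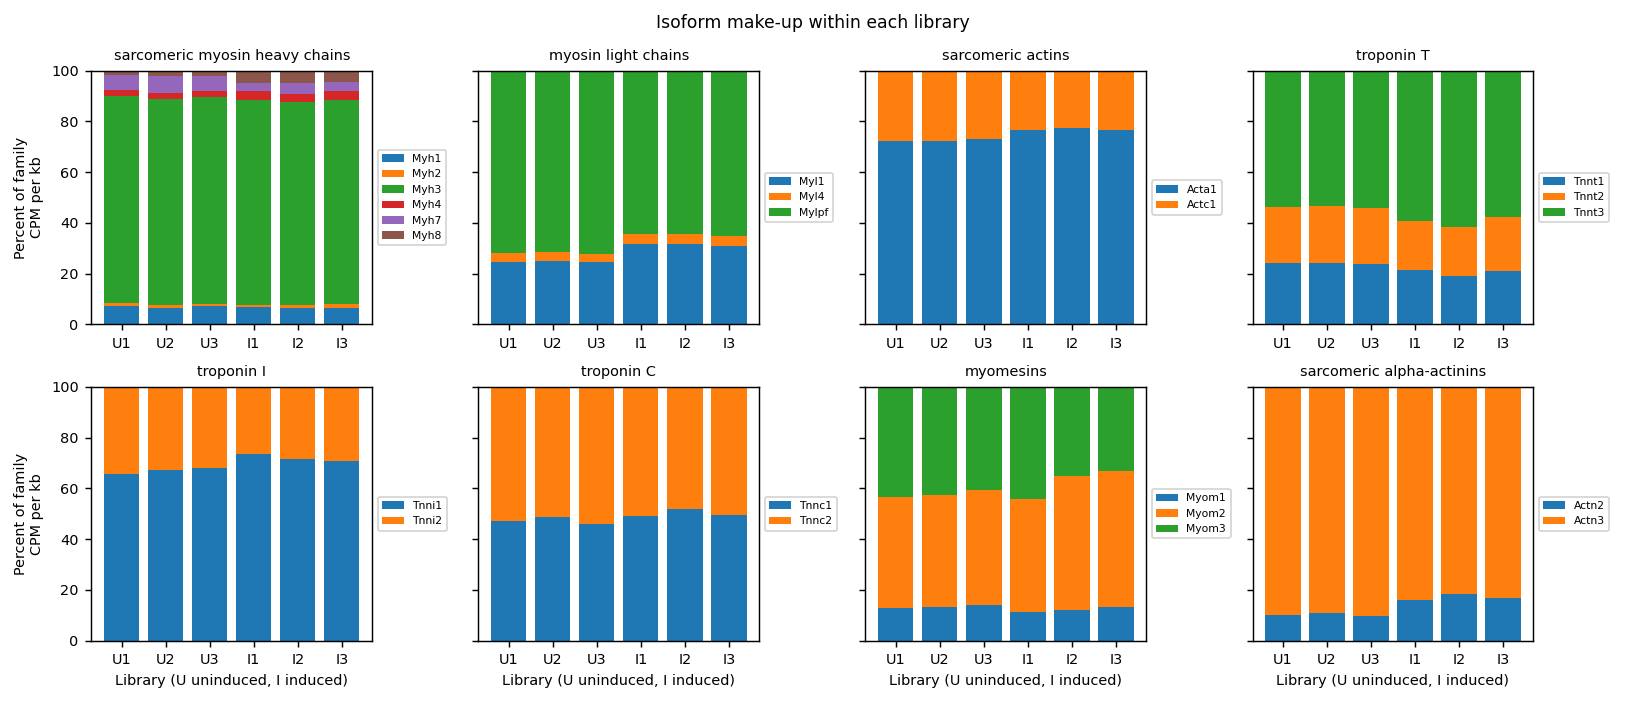
Share of each isoform in the summed CPM per kilobase of its family, in percent, for each uninduced (U) and induced (I) library. Myh3 holds 80.0% to 81.7% of the heavy chains over the 6 libraries, Acta1 goes on average from 72.4% to 76.8% of the actins, and Mylpf from 71.8% to 64.6% of the light chains.

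Ratios of paired isoforms within a library do not depend on library scaling and were compared for 8 pairs by an exact two-sided permutation test. With 3 libraries against 3 the smallest p this test can give is 0.1, so no pair could pass 0.05, and all 8 pairs were at p = 0.1 by the exact test (0.1 after Benjamini-Hochberg adjustment over 8 pairs) with groups that did not overlap. No share of separated groups over other gene pairs was computed. Among single genes tested, 41.7% were lower and 41.5% higher in induced cells with no overlap of the groups. The ratio of Myh8 to Myh3 changed most. Its log2 value was -4.34 ± 0.133 in uninduced and -3.14 ± 0.0938 in induced libraries (SD, n = 3 each), a 2.30-fold higher ratio. Actc1 over Acta1 went from -1.32 ± 0.0305 to -1.65 ± 0.0376 on the log2 scale, and Tnnt1 over Tnnt3 from -0.68 ± 0.0262 to -1.07 ± 0.135 (SD, n = 3 each). In these pairs the cardiac actin and the slow troponin T were lower relative to the skeletal and fast forms in every induced library. Troponin I went the other way, since Tnni1 over Tnni2, slow over fast, went from 2.29 ± 0.0848 to 2.62 ± 0.111 (SD, n = 3 each). Log2 differences of the other 4 pairs were -0.28 for Tnnt2 over Tnnt3, 0.18 for Tnnc1 over Tnnc2, -0.16 for Myl4 over Myl1 and 0.31 for Myom2 over Myom1. The Tnnc2 and Myom1 counts may include reads of the overlapping genes Ube2c and Myl12a.

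**Figure D4:**
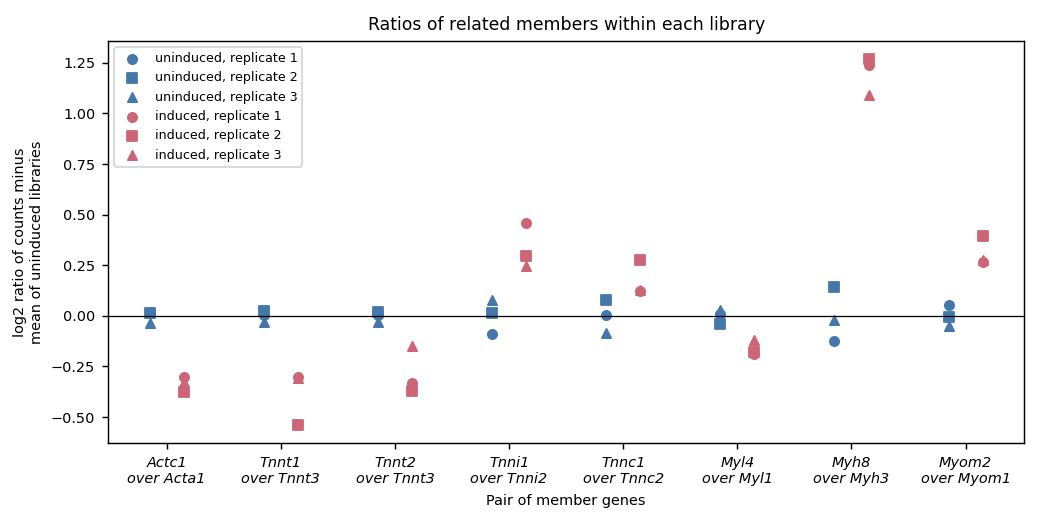
Log2 ratio of the counts of 2 related genes in each library, minus the mean of the uninduced libraries, for 8 pairs (blue uninduced, red induced, marker shape gives the replicate). The red and blue points do not overlap for any pair, and Myh8 over Myh3 shows a gap of 1.20 while the other pairs differ on average by at most 0.38.

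Other genes of the contractile apparatus, from lists that were drawn up by role, were also counted. Of 56 such genes 49 were tested, and 37 were lower, 7 higher and 5 not called, with a median log2 fold change of -0.74. For comparison, 41.2% of all genes tested were lower and 41.3% higher, with a median of -0.01. Among other thin filament genes 6 of 7 tested were lower and 0 higher. Tpm1, a tropomyosin made in muscle and non-muscle forms, fell from 1316 ± 40.3 to 424 ± 13.2 CPM (SD, n = 3 each), a log2 difference of -1.64 ± 0.04 (SE, edgeR adjusted p = 5.22e-21), and Tmod1, which caps the pointed end of thin filaments, was at -1.23 ± 0.26. Of 6 tested thick filament and M-band genes 5 were lower and 0 higher. Mylk2, the skeletal myosin light chain kinase, fell from 27.6 ± 1.59 to 5.76 ± 1.05 CPM (SD, n = 3 each), or -2.27 ± 0.10 (SE, edgeR adjusted p = 2.65e-16), and Myh7b was at -1.10 ± 0.22.

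Other Z-disc genes were mixed, with 5 lower and 4 higher of 11 tested, as were all genes tested, with 41.2% lower and 41.3% higher. Pdlim3, an alpha-actinin-associated LIM protein, rose from 61.2 ± 0.912 to 192 ± 6.61 CPM (SD, n = 3 each), or 1.65 ± 0.04 (SE, edgeR adjusted p = 1.28e-20), and Xirp2, a relative of Xirp1, rose by 2.98 ± 0.34 on the log2 scale from 0.229 ± 0.0880 CPM (SD, n = 3). Nexn and Synpo2l, both actin-binding Z-disc proteins, were at -1.38 ± 0.06 and -1.37 ± 0.05. Sarcomere chaperone and turnover genes were called lower for 7 of 9 and higher for 1. The muscle ubiquitin ligase gene Trim55 was at -1.89 ± 0.07 and the small heat shock gene Hspb7 at -1.06 ± 0.21, whereas Cryab, another small heat shock gene, was at 0.24 ± 0.05 and became -0.72 on library size alone. With upper-quartile scaling Cryab was at 0.094 and not called (edgeR adjusted p = 0.0684).

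Non-muscle and smooth-muscle paralogues of the contractile genes, which build the cytoskeleton of proliferating cells, were lower in 14 of 16 tested cases and higher in 2, with a median of -0.91. For all genes tested, 41.2% were lower and 41.3% higher, with a median of -0.01. The 2 higher genes were Myh10 and Myh11. Myh11 was at 2.76 on the log2 scale, but its mean of 0.464 CPM over all libraries was low. Their summed level was 15182 to 16233 CPM before and 8417 to 8445 CPM after induction, above the summed level of the 39 sarcomeric genes in every library. Myl9, the smooth-muscle regulatory light chain, went from 237 ± 12.1 to 65.0 ± 6.94 CPM and Tagln, which encodes transgelin, from 577 ± 34.8 to 181 ± 4.93 CPM (SD, n = 3 each). Myh10, a non-muscle heavy chain, was at 0.16 ± 0.06 (SE, edgeR adjusted p = 0.0153) and -0.80 on library size alone, a call that was lost without uninduced replicate 3 (edgeR adjusted p = 0.0915) or induced replicate 1 (edgeR adjusted p = 0.067). The Myh10 call was also lost with upper-quartile scaling (0.019, edgeR adjusted p = 0.743) and without the low-count filter (0.092, edgeR adjusted p = 0.0586). Whether sarcomeric and non-muscle genes differed in their response was not tested.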

How the data were processed

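Polyadenylated RNA from 6 cultures was sequenced, per the labels' protocols. The submitters' processing notes name TopHat2 (2.0.12), Bowtie2 (2.2.3) and the mm10 build. The authors deposited a table of raw counts for 24028 genes with Entrez identifiers. How reads were assigned to genes, with which annotation and how those matching several places were handled, is not given here, so overlapping and closely related genes can share reads. Separate cultures are stated for the replicates in the series description, and same-group libraries differed by 2.40 to 6.78 times the chi-square expected from counting noise, so each was counted as 1 sample.

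Counts were analysed in R 4.3.3 with edgeR 4.0.16 (filterByExpr, TMM factors of 1.40 on average in uninduced and 0.716 in induced libraries, glmQLFit with robust=TRUE, glmQLFTest, two-sided, group as the only term). P-values were Benjamini-Hochberg adjusted over 12969 tested genes, with a threshold of 0.05, and the biological coefficient of variation was 4.27%. SE was taken as the size of the log2 difference over the root of the F statistic. Exon lengths and overlaps came from GENCODE annotation and promoters from RefSeq, both of GRCm38, the assembly of mm10. Members with a mean of 1 CPM or more were described with values, and of each related list up to 2 called risers and 2 called fallers with a mean of 1 CPM or more were named. Other genes named beside a member, such as Ube2c and Adora1, were chosen after their overlap was seen. Alternatives comprised DESeq2 1.42.0 (median-of-ratios scaling, Wald test), library size alone, upper-quartile scaling, removal of repeated families (Zscan4, Pramef, Usp17l, Tcstv, Tdpoz, Obox), no low-count filter, a replicate block, each library left out and an adjusted p of 0.01. The members and lists were chosen with earlier results of these data known, so no p is given for a list. A pair of genes from these lists is not reported here and was left out of the list counts.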

Additional observations from a re-analysis of the deposited data

How the results depend on the processing

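The 25 lower and 4 higher calls and the median of -0.31 were recomputed under each alternative. Library size alone gave 0 higher calls and a median of -1.28, and upper-quartile scaling gave 2 and -0.46. Other settings kept the counts within 1.5 times, with 23 lower and 3 higher by DESeq2 and 21 lower and 3 higher at an adjusted p of 0.01. Leaving out 1 library gave 21 to 26 lower calls, 3 to 4 higher calls and a median of -0.40 to -0.23. With library size alone, Myh2 was at -0.79, Myh4 at -0.61, Myl1 at -0.78, Myl4 at -0.94, Klhl41 at -0.50, Cryab at -0.72 and Myh10 at -0.80 on the log2 scale, each opposite in sign to the main value. Myl4 was also at -0.12 with upper-quartile scaling and at -0.044 without the low-count filter. With 1 library left out, 3 uncalled genes changed sign, Myl4 ranging from -0.020 to 0.10, Myh2 from -0.085 to 0.43 and Tnnc1 from -0.060 to 0.056. The median of all genes was 0.16 with DESeq2 and 0.095 without the filter, both over another set of tested genes. Same-numbered libraries deviated together at correlations of 0.0604, 0.0167 and 0.0335, and libraries with different numbers at -0.0433 to 0.00901. All of these values are small, and whether the numbers mark paired cultures is not settled. With a replicate block, 26 members were lower and 4 higher, and Tnnc2 became called (edgeR adjusted p = 0.00218). For the 8 paralogue ratios these checks could not change the direction. Their groups did not overlap, so leaving out 1 library could not reverse a mean difference. A replicate block leaves the mean difference of a ratio unchanged. Myl2 and Myl3, with no counts, and Mybpc2, with at most 2 counts in a library, could not be tested. Absence and a level below detection at this depth cannot be told apart for Myl2 and Myl3.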
